A study of Mus musculus with 28 samples.

Results

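The genes described here are 39 chaperones and components of the unfolded protein response, of 53801 features in the table, measured by RNA-seq in Treg cells sorted from the spleens and orthotopic CT2A GBM tumors of mice. They were chosen by name as 15 chaperones and folding enzymes of the endoplasmic reticulum (ER), 8 sensors, transcription factors and targets of the unfolded protein response, 7 genes of ER-associated degradation and 9 cytosolic or mitochondrial heat shock proteins, and all 39 were found. Herpud2 alone was added because its level was higher in GBM after treatment, so that its values in that setting are given as a description and without a test. CT2A is a murine glioma line implanted in the forebrain.

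All mice carried CT2A tumors of 2 mm3 when treatment began, and received 4 doses of 250 µg per mouse every 3 days, either of IgG2a, the isotype control, or of αPD1 + αGITR, which combines an antibody that blocks the PD1 receptor with an agonistic antibody to the co-stimulatory receptor GITR. Organs were taken 2 days after the last dose, and TCR+CD4+CD25hi CD127lo cells were sorted with CD8+ cells gated out. The libraries used were 7 from spleen after IgG2a, 8 from spleen after αPD1 + αGITR, 5 from GBM after IgG2a and 7 from GBM after αPD1 + αGITR. The submitters state that the libraries of a tissue came from different mice. The animal numbers in the study's text equal the tumor libraries but are below the spleen libraries, several spleen labels share a number, and the independence of the spleen libraries therefore rests on that statement alone. The labels name no strain, sex or age.

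Proteins that enter the secretory pathway fold in the ER lumen with the help of chaperones such as BiP and GRP94, of the lectins calnexin and calreticulin, and of disulfide isomerases. When unfolded proteins build up, the sensors IRE1α (Ern1), PERK (Eif2ak3) and ATF6 signal from the ER membrane. IRE1α splices Xbp1 mRNA, PERK leads to translation of ATF4 and ATF6 is released by cleavage, and the resulting transcription factors raise chaperones and the degradation machinery. Heat shock proteins of the cytosol and mitochondria are governed mainly by a separate factor, HSF1. TPM counts all transcripts of a gene, so that splicing of Xbp1 cannot be read from these values.

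The unfolded protein response acts on promoters through short elements, and the promoter matches are shown as a description. Many of the genes were chosen as parts of this response, so that the matches are not independent of that choice. RefSeq promoters (GRCm38.p6, 250 bases before to 50 after the start site) were matched for 32 of the 39 genes. The ER stress element (CCAAT, any 9 bases, CCACG, either strand) was found in 8 of these 32, against 0.137% of 27025 genes. All but Syvn1 of the 8 encode ER chaperones or folding enzymes. The 9 matches lay between 26 and 212 bases before the start site, and 3 were on the strand opposite to the gene. They are written in the direction CCAAT to CCACG, with these ends in capitals.
Hspa5 (chr2:34772025-34772043, gene on the plus strand): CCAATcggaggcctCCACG
Hsp90b1 (chr10:86705638-86705656, gene on the minus strand): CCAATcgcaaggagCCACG
Hsp90b1 (chr10:86705533-86705551, opposite strand to the gene): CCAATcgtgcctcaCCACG
Calr (chr8:84847075-84847093, opposite strand to the gene): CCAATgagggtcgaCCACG
Canx (chr11:50325800-50325818, gene on the minus strand): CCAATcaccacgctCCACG
Pdia6 (chr12:17266491-17266509, gene on the plus strand): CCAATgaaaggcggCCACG
Dnajc3 (chr14:118937827-118937845, gene on the plus strand): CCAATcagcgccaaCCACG
Creld2 (chr15:88819520-88819538, opposite strand to the gene): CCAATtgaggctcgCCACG
Syvn1 (chr19:6046532-6046550, gene on the plus strand): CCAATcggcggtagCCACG

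Start sites differ between annotations, and by GENCODE the match of Hspa5 lies within the gene, in its first bases. Hsp90b1 was the only gene of these 32 with the element in duplicate. The bases before its start by both annotations (chr10:86705510-86705694, minus strand) are given 5′ to 3′ with the matches in capitals, the second of them read on the opposite strand, because Hsp90b1 recurs in the comparison of tissues below. Those of Canx (chr11:50325674-50325923, minus strand) hold a single match.
Hsp90b1: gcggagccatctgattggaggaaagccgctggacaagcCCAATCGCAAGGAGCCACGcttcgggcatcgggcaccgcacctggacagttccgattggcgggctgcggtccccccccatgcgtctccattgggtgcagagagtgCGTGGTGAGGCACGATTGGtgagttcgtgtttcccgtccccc
Canx: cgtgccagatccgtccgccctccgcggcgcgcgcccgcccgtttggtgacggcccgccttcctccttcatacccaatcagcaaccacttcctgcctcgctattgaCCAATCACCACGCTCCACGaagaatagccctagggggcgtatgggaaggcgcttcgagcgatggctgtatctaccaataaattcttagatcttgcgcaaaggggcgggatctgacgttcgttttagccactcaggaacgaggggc

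The heat shock element (GAA, any 2 bases, TTC, any 2 bases, GAA, or its complement) was found in Hsph1, Hspd1 and Hspe1, against 0.662% of genes. Hspd1 and Hspe1, the mitochondrial chaperonin pair, are transcribed away from each other and share their matches, which overlap on chr1:55088059-55088076. They are written on the strand of Hspd1, the minus strand, with the fixed bases in capitals.
Hspd1: TTCcgGAAggTTC
Hspd1: GAAggTTCtaGAA

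The element of C/EBP and ATF factors (TGATG, any base, AA, either strand) was found in Trib3 and Herpud1, against 4.51% of genes. The core of the UPR element, TGACGTGG, was in none of the 32 promoters, against 0.714% of genes. A match is a description of these letters in this window.

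Levels are TPM, a relative transcript abundance that is scaled for transcript length. They are given as mean ± SD in the order spleen IgG2a (n = 7), spleen αPD1 + αGITR (n = 8), GBM IgG2a (n = 5) and GBM αPD1 + αGITR (n = 7). No read numbers are given, so that depth is unknown. The libraries had between 7702 and 17460 features above 1 TPM, with the lowest number in an IgG2a GBM library, named the sparse library here, where 19 of the 39 genes were below 1 TPM against 0 to 10 in the others. The Treg cell marker Foxp3 was detected in every library, from 21.5 TPM in a spleen library to 440.4 TPM in a GBM library, and Cd8a did not exceed 6.15 TPM. The 6 CD8 T and NK cell genes summed to at most 65.6 TPM, and the B cell genes to between 48.7 and 973 TPM, with the highest sum in a spleen library. Macrophage and microglia genes summed to 6749 TPM in the IgG2a GBM library 79_a and to 2840 TPM in the αPD1 + αGITR GBM library 73_a, and to at most 412 TPM in the others. Hemoglobin genes and Alas2 summed to over 10000 TPM in 4 of the 8 spleen libraries after αPD1 + αGITR, with a highest sum of 28398 TPM. Member counts were also taken without these libraries. In bulk libraries fewer cells of a type cannot be told apart from less RNA per cell.

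**Figure D1:**
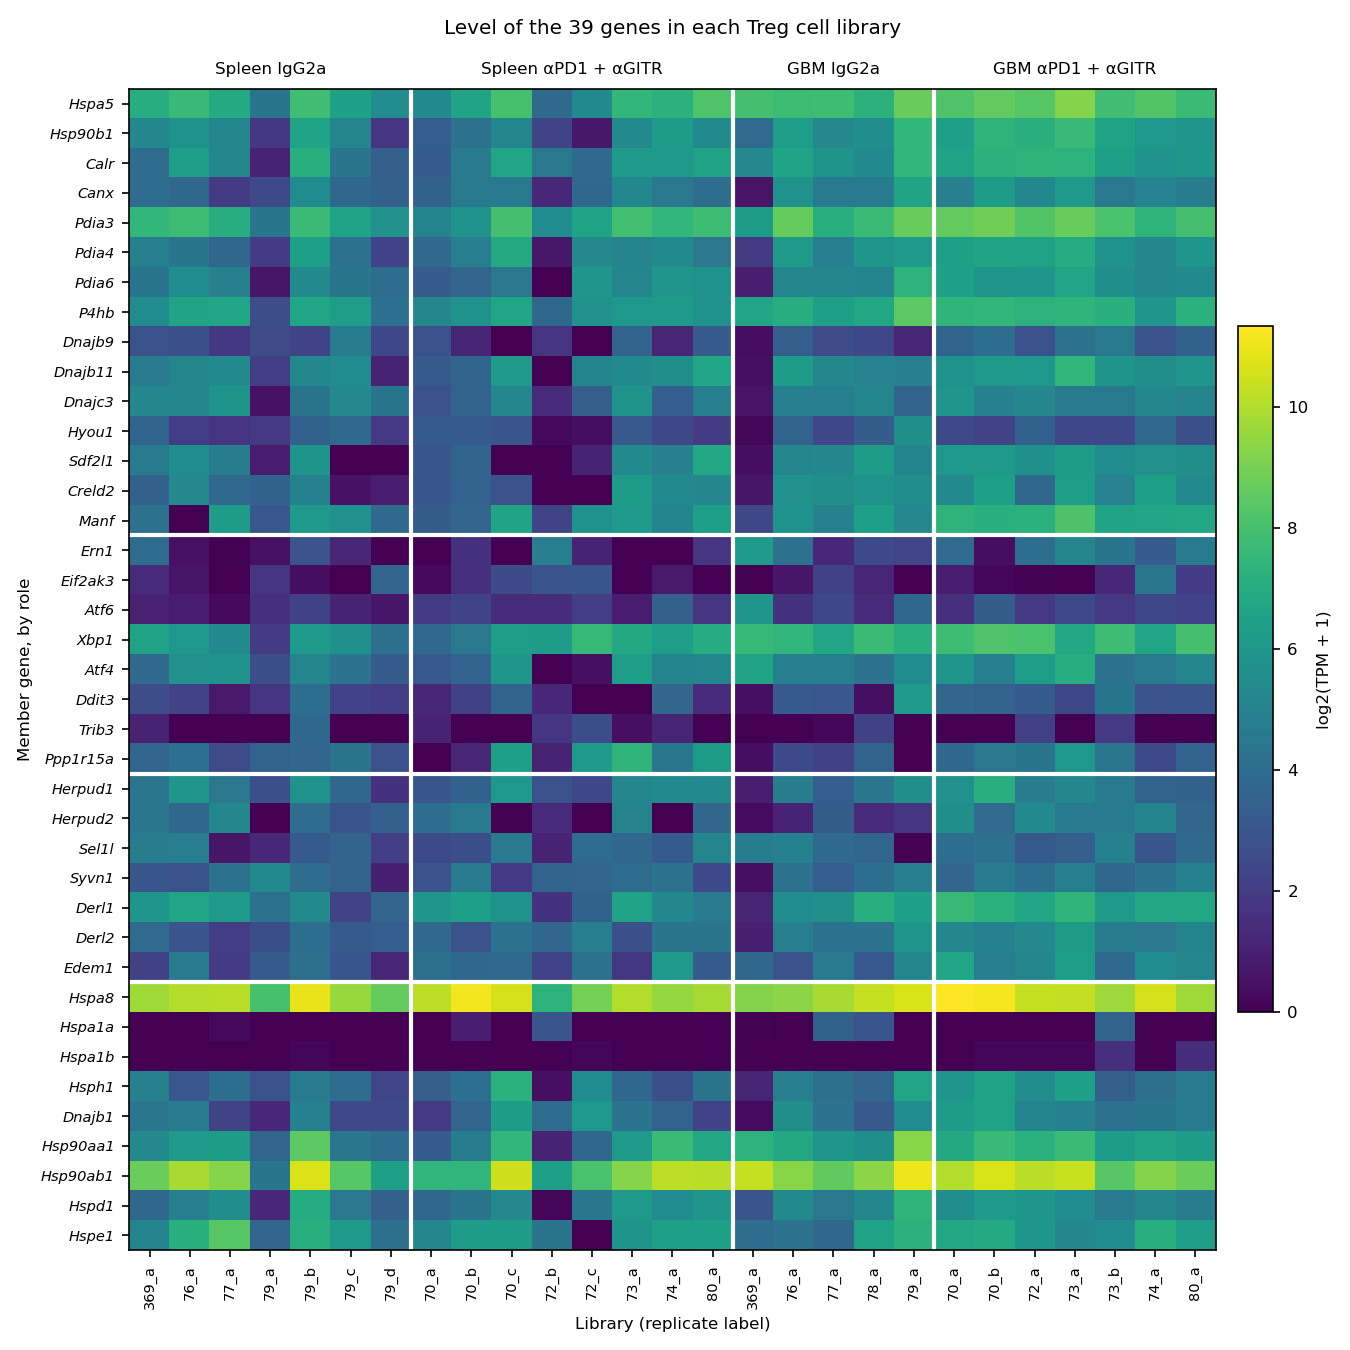
Level of each of the 39 genes (rows, by role, divided by white lines) in each of the 27 Treg cell libraries (columns, by group), as log2(TPM + 1) on the color scale. Hspa8 and Hsp90ab1 are the brightest rows and Hspa1a and Hspa1b the darkest, and the sparse IgG2a GBM library (the first of its group) is dark for many ER chaperones.

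The most abundant ER chaperones were Hspa5 and Pdia3. Hspa5 (BiP), the Hsp70 of the ER lumen, averaged 119 ± 77.3, 135 ± 105, 252 ± 96.7 and 334 ± 129 TPM. Pdia3 (ERp57), the disulfide isomerase that works with the ER lectins, averaged 129 ± 76.6, 139 ± 93.4, 248 ± 154 and 323 ± 105 TPM. P4hb, the classic protein disulfide isomerase, averaged 63.8 ± 41.0, 55.6 ± 25.8, 156 ± 109.7 and 147 ± 40.9 TPM. These abundant members were higher on average in both GBM groups than in both spleen groups, with SDs that were large against the means.

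Hsp90b1 (GRP94), the Hsp90 of the ER, needed for folding of integrins and Toll-like receptors, averaged 37.5 ± 31.9, 28.2 ± 25.2, 70.9 ± 63.8 and 116 ± 53.6 TPM. Calr (calreticulin) averaged 42.7 ± 49.4, 49.9 ± 37.0, 82.7 ± 59.0 and 109.6 ± 47.1 TPM, and Canx (calnexin) averaged 14.8 ± 13.9, 18.3 ± 10.9, 40.1 ± 36.8 and 41.5 ± 21.4 TPM. The isomerases Pdia4 and Pdia6 reached 78.8 ± 31.1 and 62.6 ± 23.2 TPM in GBM after αPD1 + αGITR, from 24.1 ± 27.4 and 24.3 ± 14.97 TPM in spleen after IgG2a. The order of the 4 means was thus the same for Calr and Canx, with spleen IgG2a lowest and GBM αPD1 + αGITR highest.

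J-domain cochaperones of BiP were measured at lower levels than BiP itself. Dnajb9 (ERdj4) averaged 7.70 ± 8.05, 3.86 ± 4.30, 4.18 ± 3.71 and 13.1 ± 6.13 TPM. Dnajb11 (ERdj3) averaged 26.4 ± 17.6, 38.7 ± 33.6, 34.6 ± 26.1 and 75.3 ± 46.4 TPM, and Dnajc3 (p58IPK) averaged 30.0 ± 18.2, 20.2 ± 19.3, 20.7 ± 14.5 and 34.6 ± 12.3 TPM. Hyou1, the nucleotide exchange factor of BiP, stayed between 4.95 and 14.8 TPM on average.

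Of the small ER proteins that rise in ER stress, Manf averaged 33.1 ± 30.3, 44.7 ± 35.4, 42.1 ± 29.2 and 149 ± 64.4 TPM, Sdf2l1 averaged 21.9 ± 23.2, 25.2 ± 37.7, 36.6 ± 27.1 and 57.2 ± 11.1 TPM, and Creld2 averaged 15.1 ± 14.7, 21.7 ± 25.6, 39.6 ± 22.0 and 53.7 ± 29.2 TPM. Of these 3, Manf had the widest gap between GBM after αPD1 + αGITR and the other groups, and Dnajb9 and Dnajb11 also had their highest mean there.

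Xbp1 was the most abundant gene of the sensor and transcription factor group, at 48.3 ± 30.6, 87.9 ± 57.7, 162 ± 44.3 and 209.8 ± 75.1 TPM. The sensors themselves were low. Ern1 averaged 3.37 ± 5.55, 4.14 ± 9.56, 19.5 ± 28.6 and 17.1 ± 11.1 TPM, Atf6 averaged 1.35 ± 1.17, 3.35 ± 2.92, 16.4 ± 25.3 and 4.27 ± 2.43 TPM, and Eif2ak3 did not exceed a mean of 3.73 TPM in any group. The sparse library is the first wherever the 5 IgG2a GBM values are listed. In GBM after IgG2a the means of Ern1 and Atf6 were carried by the sparse library, at 69.5 and 61.0 TPM.

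Of the genes downstream of PERK, Atf4 averaged 27.2 ± 20.8, 28.8 ± 30.2, 43.4 ± 31.7 and 54.1 ± 40.1 TPM. Ddit3 (CHOP), a transcription factor that promotes cell death, averaged 5.13 ± 5.12, 3.98 ± 5.08, 16.6 ± 27.9 and 10.04 ± 5.25 TPM. Ppp1r15a (GADD34), the phosphatase subunit that restores translation, averaged 11.8 ± 5.23, 51.7 ± 57.5, 4.01 ± 4.55 and 22.3 ± 19.9 TPM. Trib3, a pseudokinase target of CHOP, had means between 0.748 and 2.09 TPM and was listed at 0 in 16 of 27 libraries.

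In ER-associated degradation, which returns misfolded proteins to the cytosol for the proteasome, Derl1 was the most abundant gene, at 43.3 ± 34.8, 45.8 ± 32.9, 64.8 ± 51.3 and 130.0 ± 45.7 TPM. Its relative Derl2 averaged 9.13 ± 4.68, 15.5 ± 7.5, 25.2 ± 22.0 and 36.9 ± 16.2 TPM, and Edem1, a mannosidase-like lectin, averaged 9.51 ± 8.74, 18.3 ± 21.3, 17.8 ± 12.6 and 48.2 ± 31.3 TPM. Herpud1, a membrane component of the degradation complex, averaged 25.3 ± 22.9, 26.3 ± 22.5, 21.03 ± 17.9 and 42.5 ± 43.5 TPM. The ubiquitin ligase Syvn1 and its partner Sel1l ranged only between means of 11.3 and 20.3 TPM.

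The cytosolic heat shock proteins Hspa8, the constitutive Hsp70, and Hsp90ab1, the constitutive Hsp90, were the most abundant of all 39 genes. Hspa8 averaged 915 ± 568, 1030.5 ± 641, 1015 ± 441 and 1519 ± 693 TPM, and Hsp90ab1 averaged 588 ± 583, 628 ± 532, 1006 ± 692 and 928 ± 487 TPM. Hsp90aa1, the stress-inducible Hsp90, averaged 83.4 ± 123, 77.8 ± 81.8, 204 ± 245 and 131 ± 56.3 TPM. The inducible Hsp70 genes Hspa1a and Hspa1b were listed at 0 in most libraries, with highest group means of 3.43 and 0.586 TPM and highest single values of 11.7 and 1.90 TPM, and as near-identical copies they may share reads.

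Hsph1 (Hsp110) averaged 14.96 ± 10.003, 32.4 ± 49.2, 32.5 ± 41.3 and 47.6 ± 32.8 TPM, and the Hsp40 gene Dnajb1 averaged 13.0 ± 11.9, 25.7 ± 28.6, 23.4 ± 20.9 and 42.0 ± 29.6 TPM. The chaperonin Hspd1 averaged 35.6 ± 42.6, 33.1 ± 23.5, 55.8 ± 65.8 and 44.2 ± 16.8 TPM, and its cochaperonin Hspe1 averaged 105 ± 112, 54.8 ± 32.6, 58.6 ± 62.2 and 84.2 ± 37.7 TPM. Both members of the mitochondrial pair had SDs close to or above their means in spleen after IgG2a and in GBM after IgG2a.

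Herpud2, a relative of Herpud1 on chr9:25108132-25151820 (mm10, protein coding, minus strand), was at 0.27, 1.12, 8.98, 1.60 and 2.29 TPM in the 5 GBM libraries after IgG2a. In the 7 GBM libraries after αPD1 + αGITR it ranged from 12.2 to 49.6 TPM with a median of 24.9 TPM, so that these groups did not overlap. Spleen libraries after IgG2a ranged from 0 to 37.5 TPM with a median of 12.7 TPM, and those after αPD1 + αGITR from 0 to 32.4 TPM with a median of 6.93 TPM. The IgG2a GBM group thus had the lowest median of the 4. These are the values that put Herpud2 on the list.

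The first comparison asked whether αPD1 + αGITR changed these genes in GBM Treg cells. Genes were tested with limma on log2(TPM + 1) where their mean was above 10 TPM in at least 1 of the groups compared. A change was called at the study's values, p under 0.05 and more than 2-fold, with p taken here without adjustment. The study does not say whether its p was adjusted. Of the 38 genes other than Herpud2, 34 were tested, 6 were called higher and 0 lower, against 16.8% higher and 4.87% lower of 7848 genes tested. The share of these genes called was near that of all genes. Manf, Ppp1r15a, Dnajb9, Derl1, Edem1 and Dnajb11 were the 6, and none passed an adjusted p of 0.05 by limma, nor did any of the 7848 genes, of which 1749 had an unadjusted p under 0.05. Ppp1r15a and Dnajb9 entered the test through the treated group alone, where they were high. With a mean above 10 TPM required in both groups, 4 of 30 were called, against 14.2% of genes. The median log2 change of the 34 genes was 0.90, and that of all genes tested was 0.62. With TMM-type factors, which center the genes between libraries, the median of all genes fell to 0.05, 6.10% were called higher and 7.77% lower, and Manf and Ppp1r15a were the 2 members called.

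Manf, an ER protein that can be secreted (chr9:106838312-106891979), was at 4.32, 53.1, 30.6, 83.7 and 38.9 TPM in GBM after IgG2a, and ranged from 97.5 to 282 TPM with a median of 146 TPM after αPD1 + αGITR. All 7 treated libraries were above all 5 controls, as for 1.77% of genes tested. The log2 change was 2.16 (SE 0.59, adjusted p = 0.0977), and the exact permutation p was 0.00126, the smallest that 7 against 5 libraries can give. After TMM-type scaling it was 1.51.

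Ppp1r15a (chr7:45522916-45526268) was at 0.33, 4.82, 3.63, 11.3 and 0 TPM after IgG2a and ranged from 4.73 to 65.2 TPM with a median of 20.1 TPM after αPD1 + αGITR. It changed by 2.43 on the log2 scale (SE 0.77), with 5 of 7 treated libraries above all controls. Dnajb9 (chr12:44205559-44210326) was at 0.31, 9.74, 5.02, 4.56 and 1.29 TPM and then ranged from 6.23 to 22.6 TPM with a median of 11.7 TPM. Its log2 change was 1.67 (SE 0.69), again with 5 of 7 above all controls. Since the filter chose both genes by the group where they were high, their p is given from the limma fit of 40755 genes without a filter, where the adjusted p was 0.433 and 0.542.

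Derl1 (chr15:57869502-57892448) was at 1.28, 45.2, 51.2, 138 and 88.3 TPM after IgG2a and ranged from 67.6 to 203 TPM with a median of 111 TPM after αPD1 + αGITR. Its log2 change was 1.75 (SE 0.75, adjusted p = 0.189, exact permutation p = 0.0189). Edem1 (chr6:108828641-108859356) was at 13.3, 6.46, 25.5, 7.82 and 36.0 TPM and then ranged from 13.6 to 101 TPM with a median of 35.7 TPM, a log2 change of 1.40 (SE 0.61, adjusted p = 0.195, exact permutation p = 0.0366). For both degradation genes 3 of 7 treated libraries exceeded every control, and the rest overlapped. The call was lost in 7 of 23 alternatives for each of them.

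Dnajb11 (chr16:22857845-22879634) was at 0.38, 73.5, 37.7, 31.8 and 29.6 TPM after IgG2a and ranged from 47.3 to 179 TPM with a median of 58.4 TPM after αPD1 + αGITR. Its log2 change was 1.72 (SE 0.76, adjusted p = 0.198, exact permutation p = 0.0126), and 1 of 7 treated libraries was above all controls. Its call was lost in 8 of 23 alternatives, and that of Dnajb9 in 6 of 22. The lowest control for Derl1 and Dnajb11 was the sparse library. Without it 3 members were called (Manf, Ppp1r15a and Edem1), against 10.9% of genes higher, and without the macrophage-rich control 79_a 13 of 33 were, against 20.9%. Without both macrophage-rich GBM libraries 9 of 33 were called, against 17.97%: Manf, Ppp1r15a, Derl1 and Edem1 were kept, Dnajb9 and Dnajb11 were lost, and Hsp90b1, Pdia6, Ddit3, Hspe1 and Dnajb1 were gained. In that fit Ddit3, like Ppp1r15a, entered the test through the treated group alone, where it was high, and is counted as a description. Without the sparse library the log2 changes of Derl1, Dnajb11 and Dnajb9 were 0.75, 0.74 and 1.27.

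By role, beside the 16.8% of all genes, 3 of 15 ER chaperones and folding enzymes were called higher, 1 of 6 sensors and transcription factors, 2 of 6 degradation genes without Herpud2, and 0 of 7 heat shock proteins, of which 0 also had an unadjusted p under 0.05 by limma. Dnajb9 among the 3 and Ppp1r15a in the next role had passed the filter through the treated group alone, and the heat shock genes Hspe1 and Dnajb1 were called once the macrophage-rich libraries were left out. The medians by role were 1.01, 0.36, 1.11 and 0.56 on the log2 scale, and 0.37, -0.30, 0.57 and -0.14 after TMM-type scaling. Hspa5 had a log2 change of 0.40 (SE 0.38) that turned to -0.30 under that scaling, and Xbp1 had 0.32 (SE 0.41), which turned to -0.38. Of related genes from lists outside the 39, 2 of 13 other ER folding genes were called higher (Txndc5, at a log2 change of 2.65, and Cnpy2, at 2.65), 4 of 16 other degradation genes (Ube2j2 with the lowest p, at 2.38), 6 of 27 other cytosolic chaperones and heat shock factors (Bag1 with the lowest p, at 2.83), 1 of 14 translocation and signal peptidase genes (Sec11c), 1 of 13 chaperonin and prefoldin genes (Cct4), 1 of 9 mitochondrial chaperones and proteases (Trap1) and 0 of 10 other stress response regulators by limma, where 0 also had an unadjusted p under 0.05. No gene of these lists was called lower. The Treg cell markers summed to between 1552 and 3061 TPM in GBM after IgG2a and between 1958 and 3699 TPM after αPD1 + αGITR, and 0 of 9 were called. Immediate early genes that rise when tissue is dissociated summed to 261 to 1956 and 930 to 1465 TPM, and their part in these changes was not tested.

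**Figure D2:**
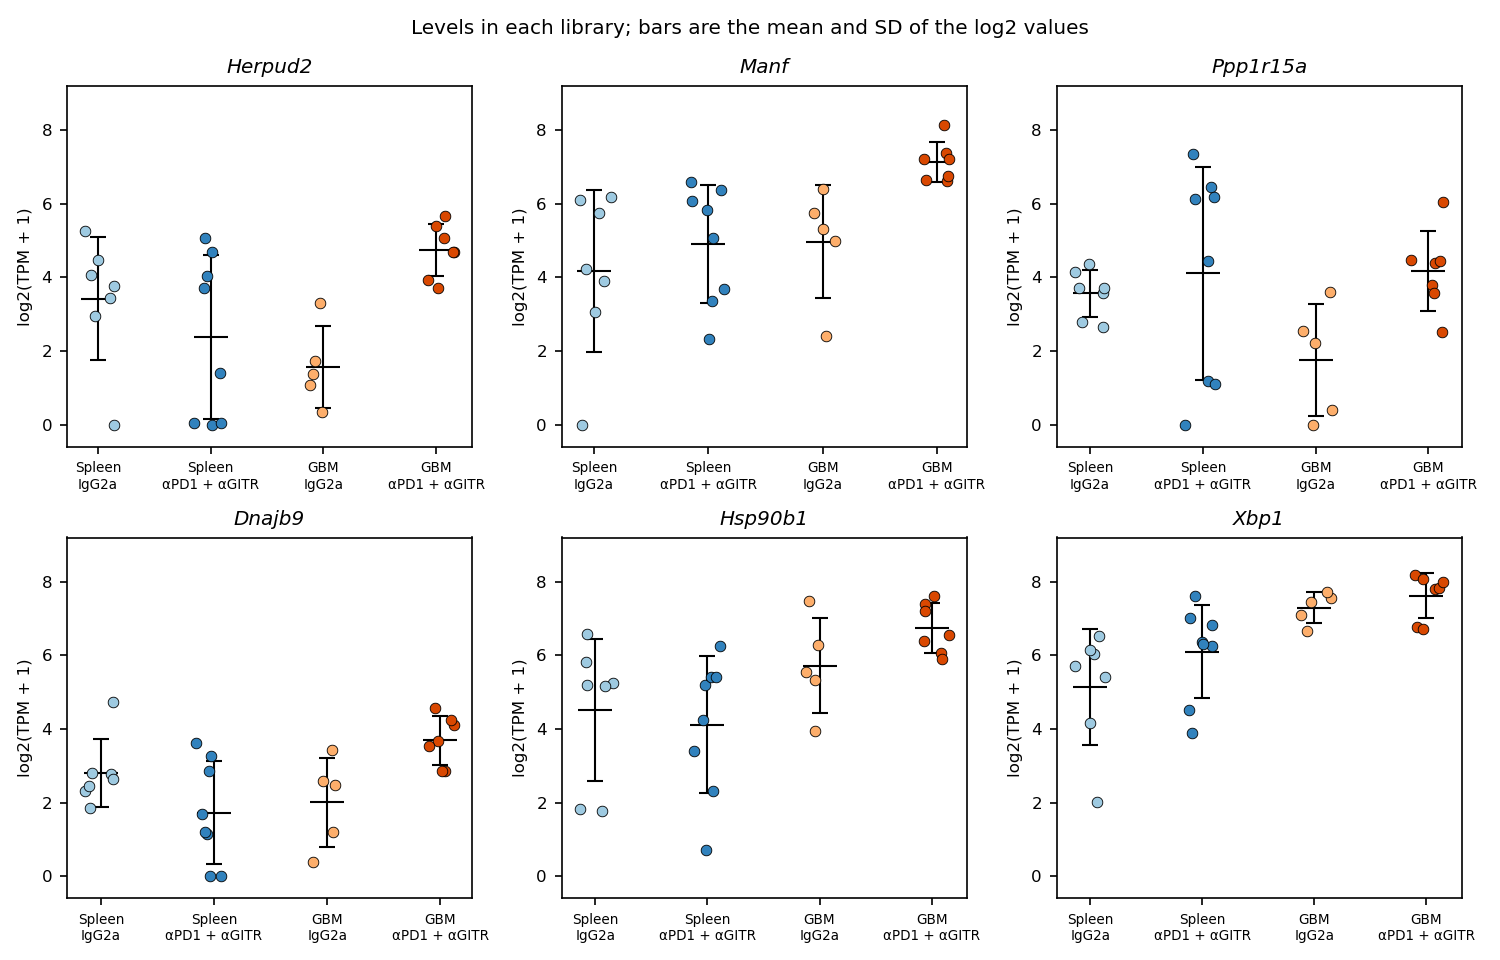
Level of 6 genes in each library (points) as log2(TPM + 1), by group, with the mean and SD of the log2 values as bars. Manf in GBM after αPD1 + αGITR lies above every other GBM library and every spleen library, and the group mean of Herpud2 is lowest in GBM after IgG2a.

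In the spleen, the same treatment gave 0 of 30 genes tested called in either direction by limma, against 1.49% higher and 1.04% lower of 6634 genes. None of the 30 had an unadjusted p under 0.05 by limma, and none had an exact permutation p under 0.05. The median log2 change was 0.11, beside 0.15 for all genes. Without the 4 erythroid-rich libraries these medians were -0.30 and -0.16, again with 0 called. Of the 7 lists of related genes none had a gene called or with an unadjusted p under 0.05 by limma. The 3 genes with the lowest p were Xbp1, Herpud2 and Derl2.

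Xbp1 (chr11:5520659-5525893) ranged from 3.08 to 90.7 TPM with a median of 50.96 TPM in spleen after IgG2a, and from 13.7 to 193 TPM with a median of 80.2 TPM after αPD1 + αGITR. The log2 change was 0.95 (SE 0.72, 95% interval -0.53 to 2.43, exact permutation p = 0.222), with 3 of 8 treated libraries above all controls. These 3 were erythroid-rich, the 4 treated libraries that were not ranged from 13.7 to 81.6 TPM, within the controls, and library weights turned the change to -0.058. Herpud2 changed by -1.05 (SE 0.93, exact permutation p = 0.317), with ranges that overlapped almost wholly. Derl2 (chr11:71007164-71019841) ranged from 3.16 to 16.1 TPM with a median of 8.14 TPM and from 5.73 to 28.2 TPM with a median of 16.2 TPM, a log2 change of 0.69 (SE 0.63, 95% interval -0.60 to 1.99, exact permutation p = 0.0895). Derl2 averaged above 10 TPM in the treated spleens alone. The intervals of Xbp1 and Derl2 include both no change and a 2-fold rise.

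Ppp1r15a fell on both sides of the controls in the treated spleens. It ranged from 5.26 to 19.7 TPM after IgG2a and from 0 to 164 TPM after αPD1 + αGITR, where 5 of 8 libraries lay above all controls and 3 of 8 lay below all controls. Its log2 change has an exact permutation p of 0.629. The 5 high libraries were 70_c, 72_c, 73_a, 74_a and 80_a, and 4 of them were those with over 10000 TPM of erythroid genes. The part of the erythroid signal in this split was not tested.

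Whether the treatment change differed between GBM and spleen was tested as an interaction over the 4 groups. Of 34 genes tested without Herpud2, 1 was called, Dnajb9, against 6.80% of 8687 genes with a difference above 0 and 5.35% below. Dnajb9 rose in GBM and had a lower median in treated spleens, 1.75 TPM against 5.25 TPM, where 2 of 8 treated libraries were listed at 0. The difference of the log2 changes was 2.75 (SE 0.97). Dnajb9 averaged above 10 TPM in treated GBM alone and was tested through that group, where it was high, so that the call does not stand as support. In the limma fit without a filter the adjusted p was 0.816, and with a mean above 10 TPM required in every group Dnajb9 was not tested and 0 of 26 genes were called. Ppp1r15a was called as well without the erythroid-rich libraries, where 10.4% of genes were called above 0. Without the macrophage-rich ones Hspe1 and Ddit3 were called as well, where 5.81% of 8406 genes were called above 0. Ddit3 was tested there through treated GBM alone, where it was high, so that its call does not stand as support.

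The next comparison asked how GBM Treg cells differed from splenic Treg cells without treatment. Of 33 genes tested after IgG2a without Herpud2, Xbp1 was called higher in GBM and Ppp1r15a lower, against 7.63% and 2.30% of 7380 genes. None of the 33 passed an adjusted p of 0.05 by limma, against 0.488% of all genes on the higher side, and 2 had an unadjusted p under 0.05. Without the macrophage-rich GBM library 79_a, Xbp1 and Ern1 were called higher, against 6.12% of 6899 genes, and no member was called lower. Ppp1r15a thus lost its call. Ern1 entered the test through GBM alone, where it was high, and its GBM mean was carried by the sparse library. The number of members called moved further when other single libraries were left out, as given in the section on processing. TMM-type scaling called 5.93% of genes higher and 5.28% lower, and again Xbp1 higher and Ppp1r15a lower.

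Xbp1 was at 189, 174, 99.4, 211 and 136 TPM in GBM after IgG2a, and its highest spleen value after IgG2a was 90.7 TPM, so that the 5 GBM libraries lay above all 7 spleen libraries. Groups separated in this direction for 1.25% of genes. The log2 change was 2.15 (SE 0.80, adjusted p = 0.321), and the exact permutation p was 0.00631. It was 1.87 after TMM-type scaling and stayed called in all 24 alternatives run. In its order of levels each group overlapped the next. Among these neighbors, spleen after αPD1 + αGITR reached 193 TPM and GBM after IgG2a began at 99.4 TPM.

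Ppp1r15a was at 0.33, 4.82, 3.63, 11.3 and 0 TPM in GBM and between 5.26 and 19.7 TPM in spleen, a log2 change of -1.81 (SE 0.89). In 4 of 5 GBM libraries it was below all spleen libraries. Ppp1r15a entered the test through the spleen group alone, where it was high. In the limma fit without a filter its adjusted p was 0.801, and the call was lost in 14 of 23 alternatives run. Hspa5, at 256, 216, 225, 153 and 412 TPM in GBM and 20.2 to 233 TPM in spleen, had a log2 change of 1.36 (SE 0.74, adjusted p = 0.556, exact permutation p = 0.0341) and was not called. In these libraries 4 of 9 Treg cell markers were called higher in GBM, and their sums were 1552 to 3061 TPM in GBM and 242 to 2446 TPM in spleen. All 5 erythroid genes were called lower. The part of these differences in cell content was not tested.

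The same contrast was made after αPD1 + αGITR. Of 32 genes tested without Herpud2, 22 were called higher and 0 lower, against 33.9% higher and 6.31% lower of 7506 genes. An adjusted p under 0.05 was reached by 9 of them, against 15.8% of all genes. The median log2 change was 1.51, and that of all genes tested was 0.95. With a mean above 10 TPM required in both groups, 19 of 29 were called, against 32.3% of genes, and 6 passed the adjusted threshold, against 10.6%. After TMM-type scaling, which lowered the median of all genes to 0.22, 4 of the 32 were called (Hsp90b1, Manf, Sdf2l1 and Ern1), against 12.1% of all genes higher and 11.96% lower, and 0 passed an adjusted p of 0.05. Without the 4 erythroid-rich spleen libraries 23 were called and 22 passed the adjusted threshold, while the share of all genes called higher rose to 45.4%. Without the macrophage-rich GBM library 73_a 17 were called and 2 passed it, against 30.1% of genes called higher. The share of all genes past the adjusted threshold was not taken in these fits, so that the 22 and the 2 cannot be set against it. With libraries of the same number averaged, which leaves fewer samples, 11 were called and 0 passed the adjusted threshold. The drop to 11 is not read as a result about these genes.

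All 14 ER chaperones and folding enzymes tested were called higher, with log2 changes from 1.25 to 2.73 and a median of 1.64. The counts by role stand beside 33.9% of all genes called higher. Without GBM 73_a 11 of the 14 were called, beside 30.1% of all genes, and Canx, Pdia6 and Dnajb11 were lost. After TMM-type scaling all 14 were still above 0, with a median of 0.96, and 3 were called, beside the share of all genes given above for that scaling. In the sensor and transcription factor group 4 of 5 were called (Ern1, Xbp1, Ddit3 and Atf4), in ER-associated degradation 3 of 6 without Herpud2 (Derl1, Edem1 and Derl2), and among the heat shock proteins 1 of 7 (Hsp90aa1). Without the erythroid-rich libraries Hsp90ab1 and Hspd1 were called too and Ddit3 was not, and without GBM 73_a Atf4 and Hsp90aa1 were lost. The heat shock proteins had a median log2 change of 1.16 and, after TMM-type scaling, of 0.36. The 6 genes not tested, with means of 10 TPM or less in both groups, were Hyou1, Eif2ak3, Atf6, Trib3, Hspa1a and Hspa1b. Dnajb9, Ern1 and Ddit3 passed the filter through the GBM group alone, where they were high, and are counted here as a description. The other 13 ER chaperones passed it in both groups.

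Hsp90b1 (chr10:86690209-86705509), whose promoter holds the ER stress element in duplicate, ranged from 0.65 to 75.4 TPM with a median of 26.7 TPM in spleen after αPD1 + αGITR. In GBM it ranged from 58.5 to 196 TPM with a median of 93.7 TPM, and 5 of 7 libraries were above all 8 from spleen. Its log2 change was 2.61 (SE 0.68, adjusted p = 0.0150, exact permutation p = 0.00186), and 1.86 after TMM-type scaling. It remained called in all 27 alternatives run.

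Manf ranged from 4.02 to 96.4 TPM with a median of 44.1 TPM in spleen after αPD1 + αGITR, and all 7 GBM libraries were above this range, as for 2.96% of genes tested. Its log2 change was 2.22 (SE 0.61, adjusted p = 0.0193, exact permutation p = 0.0014), and 1.42 after TMM-type scaling. Manf also remained called in all 27 alternatives run. The GBM libraries are the same as in the first comparison, so that the results for Manf share their treated samples.

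Sdf2l1 (chr16:17130138-17132383), a partner of the BiP cochaperones, ranged from 0 to 111 TPM in spleen with a median of 9.35 TPM, and from 44.3 to 72.4 TPM in GBM with a median of 52.6 TPM. The highest single value was thus in a spleen library, 80_a, and the GBM libraries were the narrower group. The log2 change was 2.73 (SE 0.83, adjusted p = 0.0304, exact permutation p = 0.0149). Ern1 (chr11:106394650-106487852) was listed at 0 in 4 of 8 spleen libraries, with a median of 0.57 TPM and a highest value of 27.7 TPM. In GBM it ranged from 0.34 to 34.8 TPM with a median of 16.02 TPM, a log2 change of 2.56 (SE 0.80). Its adjusted p was 0.163 in the limma fit without a filter, which had not chosen it by its GBM level. Only 1 of 7 GBM libraries was above all spleen libraries for Ern1.

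Derl1 ranged from 2.16 to 91.8 TPM with a median of 46.0 TPM in spleen and from 67.6 to 203 TPM with a median of 111 TPM in GBM, a log2 change of 1.98 (SE 0.62, adjusted p = 0.0339, exact permutation p = 0.00326). P4hb (chr11:120560298-120573253) ranged from 12.8 to 102 TPM with a median of 54.2 TPM in spleen and from 58.7 to 182 TPM with a median of 161 TPM in GBM, a log2 change of 1.49 (SE 0.47, adjusted p = 0.0358, exact permutation p = 0.00155). For both genes 6 of 7 GBM libraries were above all spleen libraries. Neither was called after TMM-type scaling, where the log2 changes were 1.18 and 0.66.

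Hspa5 (chr2:34771970-34777547) and Pdia3 (chr2:121413775-121438687) also passed the adjusted threshold, with log2 changes of 1.77 (SE 0.57) and 1.503 (SE 0.51). For Hspa5, spleen libraries ranged from 13.9 to 296 TPM and GBM libraries from 209 to 591 TPM, and 4 of 7 GBM libraries were above all from spleen. Ppp1r15a went apart from the rest, at a log2 change of 0.07 (SE 0.95), with 4 of 8 spleen libraries above every GBM library.

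**Figure D3:**
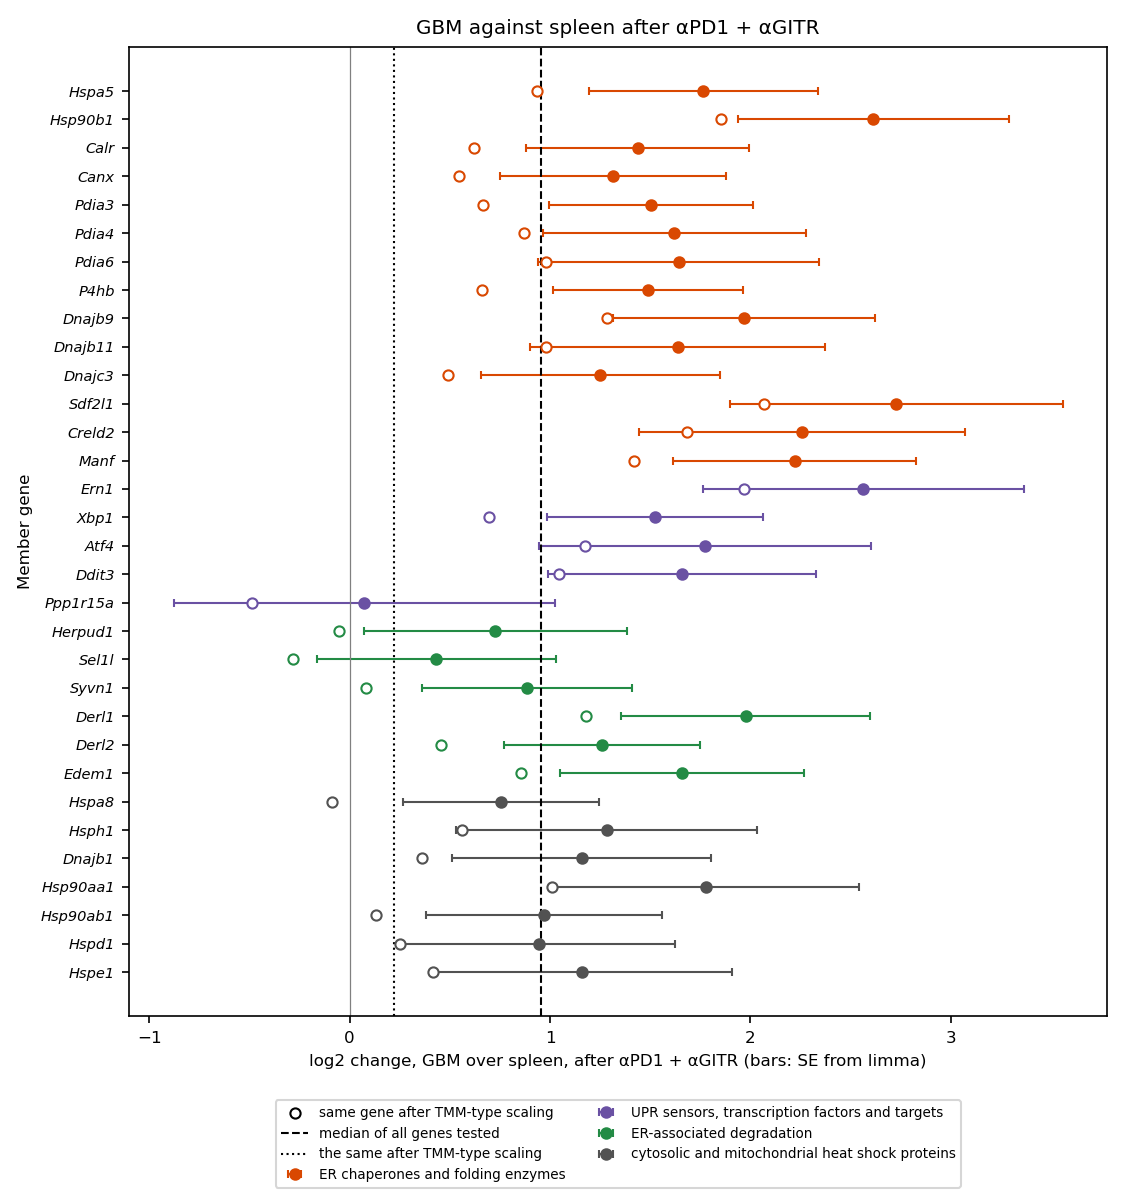
Log2 change in GBM over spleen after αPD1 + αGITR for the 32 genes tested without Herpud2 (filled points with SE, colored by role) and the same genes after TMM-type scaling (open points). All 14 ER chaperones lie to the right of the dashed median of all genes, 0.95, and all their open points lie to the right of the dotted median after scaling, 0.22.

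The 8 genes with an ER stress element in the promoter had log2 changes from 0.89 to 2.61 in this comparison, with a median of 1.54, and 7 of the 8 were called. The 19 tested genes with a promoter but without the element had a median of 1.503, and 12 were called. Of all genes tested 33.9% were called higher. Dnajb9, Ern1 and Ddit3, all called, were among the 19 and had passed the filter through GBM alone, where they were high. The medians with and without the element are therefore given as a description, and these counts carry no test.

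Related genes outside the 39 differed by list in this contrast. Called higher were 7 of 14 other ER folding genes (Erp29, Dnajc1 and Ppib had the lowest p, at log2 changes of 2.28, 1.75 and 1.71), 8 of 14 translocation and signal peptidase genes (Spcs1 at 2.76 and Sec61b at 2.23), 10 of 16 other degradation genes (Ube2j2 at 1.94 and Os9 at 2.36) and 4 of 9 other stress response regulators (Ddit4 at 1.55). Of the cytosolic side, 10 of 28 other chaperones and heat shock factors were called higher (Bag1 at 3.16) and 1 lower, 1 of 12 chaperonin and prefoldin genes (Cct2 at 1.39) and 2 of 9 mitochondrial chaperones and proteases (Clpx at 2.14 and Dnaja3 at 1.33). The share called was above 33.9% in the ER lists, the regulator list and, at 10 of 28, the cytosolic list, and below it in the chaperonin and mitochondrial lists, as a description of these counts.

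Treg cell markers were higher in the same libraries. In GBM after αPD1 + αGITR 8 of 9 were called higher, with a median log2 change of 1.62, and their sum ranged from 1958 to 3699 TPM against 229 to 2249 TPM in spleen. Plasma cell genes, which matter here because plasma cells are rich in XBP1 and ER chaperones, summed to 30.6 to 101 TPM in GBM and 9.89 to 43.2 TPM in spleen. Of the 9 plasma cell genes, only Prdm1, which effector Treg cells also express, was high enough to be tested, and it was called higher at 2.47. The defining plasma cell gene Jchain did not exceed 0.73 TPM in these GBM libraries. Of 10 macrophage and microglia genes tested 5 were called higher, with sums of 87.8 to 2840 TPM in GBM and 19.8 to 412 TPM in spleen, and immediate early genes summed to 930 to 1465 and 264 to 960 TPM. The part of these genes' cells in the changes was not tested.

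Sums within a library do not depend on scaling between libraries when set against each other. The 15 ER chaperones and folding enzymes summed to 88.3 to 1172 TPM in spleen after IgG2a (median 605 TPM), 108 to 1170 TPM in spleen after αPD1 + αGITR (median 619 TPM), 499 to 2066 TPM in GBM after IgG2a (median 969 TPM) and 1097 to 2478 TPM in GBM after αPD1 + αGITR (median 1610 TPM). As a percentage of the 9 heat shock proteins of the same library, this sum had medians of 36.5, 36.9, 44.99 and 57.6, with ranges of 26.8 to 44.6, 14.8 to 52.9, 24.3 to 87.3 and 40.4 to 92.7. ER chaperones thus made up more of the chaperone pool in GBM after αPD1 + αGITR than in most spleen libraries, although the ranges overlapped.

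As a percentage of the 9 Treg cell markers, the same sum had medians of 71.9, 58.2, 61.4 and 52.1, with ranges of 36.4 to 97.8, 36.7 to 131, 16.3 to 118 and 43.8 to 121. Against these markers the ER chaperones were not higher in GBM in the medians, and all 4 groups overlapped. These ratios were chosen after the values were seen and carry no test.

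**Figure D4:**
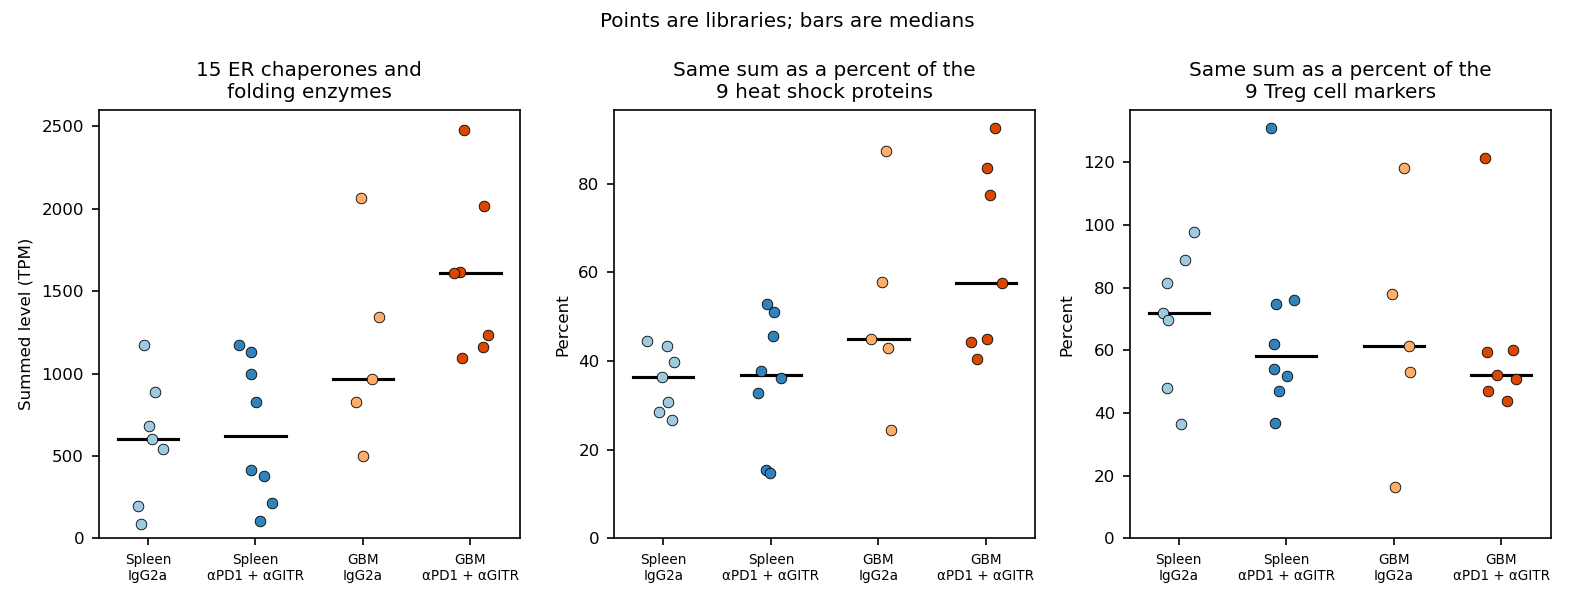
Summed level of the 15 ER chaperones and folding enzymes in each library (left, TPM), the same sum as a percentage of the 9 heat shock proteins (middle) and of the 9 Treg cell markers (right), by group, with bars at the medians. The left panel is highest in GBM after αPD1 + αGITR (median 1610 TPM), and in the right panel the 4 groups overlap, with medians from 52.1 to 71.9.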

How the data were processed

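Libraries of Treg cell RNA were made by Smart-Seq2 and Nextera XT and read on a NextSeq500. According to the methods and the submitters' notes, the authors aligned reads to mm10 with TopHat2 and computed TPM with RSEM; versions and annotation are not given in the sources used here. The deposited signal values are TPM plus 1, from which 1 was subtracted. Of 28 libraries described, 27 had a named column and 1 unnamed column was not used.

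Groups were taken from the labels. Genes with a mean above 10 TPM in at least 1 group compared were fitted with limma 3.58.1 (R 4.3.3, trend = TRUE) on log2(TPM + 1), so that fold changes understate low genes, with only the groups compared in each fit. Calls were an unadjusted p under 0.05 and more than 2-fold, with Benjamini-Hochberg adjustment over all genes tested. Single genes were also tested by two-sided exact permutation of libraries. The steps were tested on simulated data. Members are given by their group means or the range of these, and Herpud2 by its library values. Library values are given for Herpud2 and for up to 6 members past the threshold per comparison in order of p, or for the 3 with the lowest p. The Ppp1r15a values in spleen and those of Hspa5 were chosen after they were seen. The members and lists were chosen with earlier results of these data known. Positions are from GENCODE vM21. TMM-type factors trimmed 30% of log ratios and 5% of mean levels at each end. Each p-value sets a difference between groups against the spread between libraries, whose independence in the spleen rests on the submitters' statement.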

Additional observations from a re-analysis of the deposited data

Results flagged for a closer look

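Among 52 sets of library values, each a gene with full values in a group, 8 held a library far from the others, and chance gives about 1 in 20. In GBM after IgG2a, the sparse library lay far below the others for Derl1 (1.28 TPM), Dnajb11 (0.38 TPM) and Sdf2l1 (0.32 TPM). In GBM after αPD1 + αGITR, Dnajb11 was far higher in 73_a (179.46 TPM), Ern1 far lower in 70_b (0.34 TPM) and P4hb far lower in 74_a (58.69 TPM). In spleen, Dnajb9 was far higher in the IgG2a library 79_c (25.76 TPM) and Ern1 in the αPD1 + αGITR library 72_b (27.67 TPM).

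The treatment change of Dnajb9 differed between GBM and spleen by 2.75 on the log2 scale in the test of the interaction. The gene was tested through treated GBM alone, where it was high, and in the limma fit without a filter the adjusted p was 0.816, so that the difference is given as a value and not as support.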

How the results depend on the processing

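In GBM treatment, where 6 members were called, quantile normalization and TMM-type factors each gave 2 and averaging libraries with the same number gave 3; leaving out single libraries gave 3 (without the sparse IgG2a library) to 13 (without 79_a). In the spleen, averaging gave 1 in place of 0, and library weights turned the log2 change of Xbp1 to -0.058. In GBM against spleen after IgG2a, where 2 members were called of all 39, Herpud2 included, a pseudocount of 10 gave 1, no filter 5, a mean above 10 TPM in every group 1, library weights 6, all 4 groups in one fit 7 and the replicate block 1, and leaving out single libraries gave 1 (without the spleen replicate 79_c) to 8 (without 79_b), with 4 or 6 without the spleen replicate 76_a and the GBM replicate 78_a or the sparse GBM library. After αPD1 + αGITR, where 22 were called, quantile normalization gave 6, TMM-type factors 4, rescaling without the 10 most abundant features 14 and averaging 11, and the replicate block gave 22. The share of all genes called moved between settings as well. In this contrast 33.9% were called higher in the main fit, 45.4% without the erythroid-rich libraries and 30.1% without GBM 73_a. Counts of members by setting, here and below, are therefore not read as a result about these genes alone.

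The 9 adjusted calls became 3 with a pseudocount of 0.1, 0 without a filter, 2 with quantile normalization, 0 with TMM-type factors, 2 without the 10 most abundant features, 4 with the number of genes detected as a covariate, 18 with library weights, 3 with all 4 groups in one fit and 0 with averaging. Leaving out single libraries gave 2 (without the GBM replicates 70_a, 72_a or 73_a) to 14 (without the spleen replicates 73_a or 74_a), with 3 to 5 without GBM 70_b or 80_a or spleen 70_a, 70_b, 72_b or 72_c. In alternatives added after the data were seen, leaving out the 4 spleen libraries with over 10000 TPM of erythroid genes gave 22, and leaving out the GBM library 73_a, with over 1000 TPM of macrophage genes, gave 2. For these added alternatives the share of all genes past the adjusted threshold was not taken. The interaction, with 1 member called, gave 0 with a mean above 10 TPM in every group, 1 to 2 without single libraries (2 without spleen 76_a or 79_a or GBM 78_a or 79_a), 2 without the erythroid-rich libraries and 3 without the macrophage-rich ones. Of these 3, Dnajb9 and Ddit3 were tested through treated GBM alone. The causes were not tested, except that averaging leaves fewer samples.

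Labels share numbers between tissues without saying what they mark, and the correlation of same-numbered libraries ran from -0.15 to 0.16, with 2 of 9 matching best. With a consensus correlation of -0.06 and -0.05, the replicate block changed the call of Ppp1r15a after IgG2a and no other named call. Read depth is unknown, so that values near 0 cannot be told apart from absence.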
